A study of Mus musculus with 12 samples.

Results

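Chemokine and migration receptors carry macrophages towards sites of injury and hold them there. Of the 13232 genes in the table, 9 receptor genes were chosen by name: *Ccr1*, *Ccr2*, *Cx3cr1*, *Cxcr4*, *Ccrl2*, *Plxnb2*, *Plxnd1*, *Nrp1* and *Nrp2*. All 9 had a row. They were measured in macrophages grown from whole bone marrow of wild-type C57B6/J mice. The mice had been fed either a high-fat diet (HFD) or a normal one (ND), and the cells were cultured in M-CSF at 20 ng/ml and moved to Macrophage-SFM medium on day 4. Stranded total RNA libraries, depleted of ribosomal RNA, were read from one end over 75 bases. On day 7 the hypoxic cells spent 1 h at 1% oxygen. The libraries used are 3 per diet, all from hypoxic cells, so every value below is a level under hypoxia and every comparison is HFD against ND. The 6 libraries from cells at normal oxygen were not analysed here. The labels give no sex, age or length of feeding, and do not say whether each library came from its own mouse, so p-values measure only the spread between these libraries.

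Chemokine receptors are G protein-coupled receptors that sense gradients of small secreted chemokines and steer the cytoskeleton through inhibitory G proteins and phosphoinositide 3-kinase. CCR1, CCR2 and CX3CR1 guide monocytes and macrophages to inflamed tissue, while CXCR4 binds CXCL12 and retains blood cells in the marrow. Plexins are the receptors of semaphorins and act on small GTPases, and neuropilins are co-receptors that bind class 3 semaphorins and VEGF beside a plexin or a VEGF receptor. In obese adipose tissue the CCR2 pathway is known for recruiting monocytes that become macrophages.

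The values are a normalized signal, read as estimated counts divided by a size factor per library. The estimated depth was 19046382 reads in ND replicate 3, the shallowest library, and 22181028 to 24491491 reads in the others. Macrophage markers were present for 10 of 10 genes, with summed levels of 366100 to 419500 in ND and 363400 to 423800 in HFD. ND replicate 3 stood apart from its group. On the first principal component (43.3% of the variance among 10794 genes) it scored 3.43, among the HFD libraries (1.33 to 11.4) and away from ND replicates 1 and 2 (-14.0 and -13.5). Calls that turn on it are given with and without it. It was singled out from these same values, and leaving it out favours differences that follow this component. Such calls are therefore descriptions and no separate support.

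Levels of different genes were compared per kb of merged exons, since longer transcripts collect more reads. Gene positions and exons are those of GENCODE M21 in GRCm38. *Plxnb2* was highest, at 1804 to 2056 per kb over the 6 libraries, but *Cxcr4*, at 1452 to 2367 per kb, covered that whole range, so these neighbours did not differ beyond their spread. *Plxnd1* followed at 1485 to 1674 per kb and also lay within the range of *Cxcr4*. *Nrp2* (1195 to 1353 per kb) and *Nrp1* (1019 to 1093 per kb) came next, with no overlap between them or with *Plxnd1*. *Ccr1* was lower, at 152 to 380.5 per kb, then *Ccr2* at 92.55 to 135, *Ccrl2* at 51.1 to 73.5 and *Cx3cr1* at 8.69 to 15.1 per kb. None of these lower 4 overlapped its neighbours. The order of the upper 5 depended on the length used: per kb of the longest annotated transcript the means were 2819 for *Nrp1*, 2294 for *Plxnb2*, 2258 for *Nrp2*, 1897 for *Cxcr4* and 1664 for *Plxnd1*. The longest annotated *Nrp1* transcript has 4 exons and 3645 bases, against 18 merged exons and 9785 bases for the gene. The first place of *Nrp1* by that length therefore rests on a partial length. The lower 4 kept their order.

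**Figure D1:**
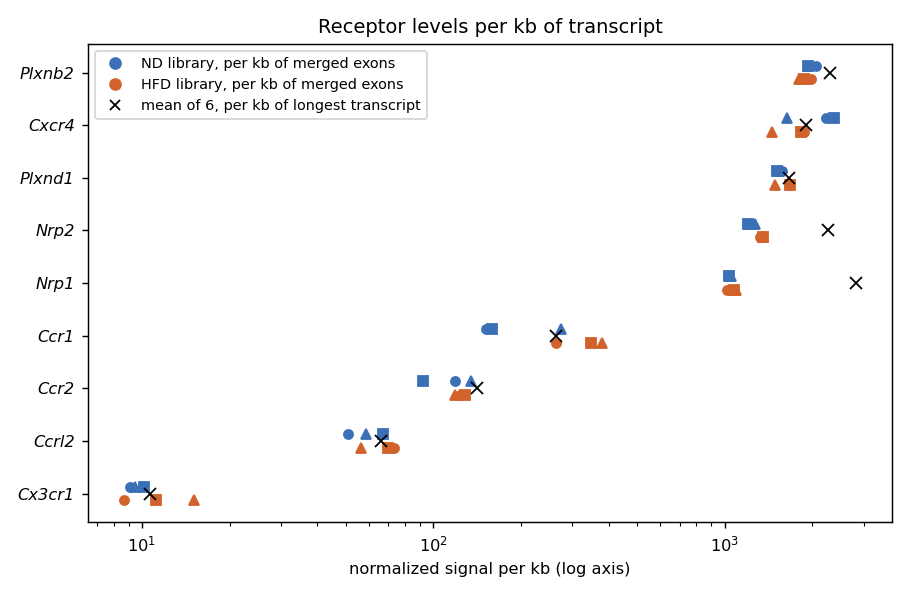
Normalized signal per kb for each receptor on a log axis, with 1 point per library (ND blue, HFD orange, marker shape for the replicate) and a cross for the mean per kb of the longest transcript. The 5 most abundant receptors lie between 1019 and 2367 per kb of merged exons, and *Cx3cr1* lies between 8.69 and 15.1.

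*Ccr1* (chr9:123962124-123968692, minus strand, 2 merged exons) is a receptor for CCL3, CCL5 and other inflammatory CC chemokines. In replicates 1 to 3 its signal was 431, 449 and 776 for ND and 749.8, 982 and 1078 for HFD. ND replicates 1 and 2 were low and close together, ND replicate 3 lay above HFD replicate 1, and so the diets overlapped by that pair of libraries. ND averaged 552 ± 194 and HFD 937 ± 169 (SD over 3 libraries per diet), a log2 fold change of 0.80 (SE 0.21, 95% interval 0.32 to 1.28), or 1.74-fold. This was the largest difference among the receptors and ranked 133 by size among 13232 genes. It did not pass the test (limma p = 0.00394, adjusted p = 0.278 over all genes; exact two-sided permutation p = 0.2, where 0.1 is the smallest possible). Without ND replicate 3 the log2 fold change was 1.07 and passed (limma adjusted p = 0.0144). The adjusted p spanned 0.0068 to 0.879 over all alternatives tried.

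*Ccr2* (chr9:124101950-124113557, plus strand, 3 merged exons) is the receptor for CCL2 and CCL7 and the main exit signal of inflammatory monocytes from marrow. Its signal was 802, 626 and 910.4 in ND and 837, 867 and 805 in HFD replicates 1 to 3. The HFD libraries were tightly grouped inside the ND range. The log2 fold change was 0.12 (SE 0.12, 95% interval -0.15 to 0.39, limma adjusted p = 0.779), and leaving out ND replicate 2 gave -0.031 while leaving out ND replicate 3 gave 0.24. Its level was a whole number of reads (within 0.02 of a read) in 0 of 6 libraries, against 6 of 6 for *Ccr1*, *Ccrl2* and *Cx3cr1*. The signal of 1 read was estimated from values of 5 to 1000, and *Cxcr4*, *Nrp1*, *Nrp2*, *Plxnb2* and *Plxnd1* lay above these. At their levels a small error in that estimate can exceed 0.02 of a read, so the check cannot decide for them.

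*Ccr1*, *Ccr3* and *Ccr2* lie in this order on chromosome 9, from 123962126 to 124109140 in the RefSeq annotation of GRCm38.p6, with *Ccr1l1*, which had no row in the table, between the first pair. Within this block *Ccr1* and *Ccr2* did not keep a fixed ratio. On the log2 scale *Ccr1* less *Ccr2* was -0.89, -0.48 and -0.23 in ND and -0.16, 0.18 and 0.42 in HFD replicates 1 to 3, without overlap. *Ccr1* less *Ccr3*, the eotaxin receptor, was -0.16, -0.35 and -0.19 in ND and -0.29, -0.11 and 0.0073 in HFD, with overlap. These pairs were chosen after their values were seen and are a description without a test.

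*Cx3cr1* (chr9:119901616-120069879, minus strand, 4 merged exons) is the receptor for fractalkine and marks patrolling monocytes and many resident macrophages. It was the scarcest receptor, at 40.9, 46.0 and 42.5 in ND and 39.2, 50.2 and 68.1 in HFD replicates 1 to 3. HFD replicate 3 was the highest library and HFD replicate 1 the lowest, so the HFD libraries enclosed all ND libraries. These levels correspond to 36 to 75 estimated reads, for which counting error alone is 11.5% to 16.7%. The log2 fold change was 0.24 (SE 0.23, 95% interval -0.28 to 0.77, limma adjusted p = 0.763), with 0.041 left without HFD replicate 3 and 0.43 without HFD replicate 1.

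*Ccrl2* (chr9:111054486-111057519, minus strand, 3 merged exons) encodes an atypical receptor that binds chemerin and presents it to neighbouring cells without signalling through G proteins. Its signal was 133, 175 and 152 in ND and 191, 181 and 147 in HFD replicates 1 to 3. HFD replicate 3 fell inside the ND range while the other HFD libraries lay above it. The log2 fold change was 0.17 (SE 0.15, 95% interval -0.15 to 0.50, limma adjusted p = 0.718), and it was 0.075 without ND replicate 1 and 0.29 without HFD replicate 3.

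*Cxcr4* (chr1:128588199-128592293, minus strand, 2 merged exons) was the most abundant of the chemokine receptors on any length used, and the receptor with the largest difference downwards. Its signal was 4017, 4279 and 2961 in ND and 3372, 3292 and 2624 in HFD replicates 1 to 3. ND replicate 3 again lay among the HFD libraries, below HFD replicates 1 and 2, so the diets overlapped. ND averaged 3752 ± 698 and HFD 3096 ± 411 (SD over 3 libraries per diet), a log2 fold change of -0.27 (SE 0.14, 95% interval -0.58 to 0.044). It did not pass the test (limma p = 0.0846, adjusted p = 0.551; exact permutation p = 0.3). Without ND replicate 3 it was -0.43 (limma adjusted p = 0.0795) and without HFD replicate 3 it was -0.15. The adjusted p spanned 0.0795 to 0.960 over all alternatives tried.

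In the fit of 6 libraries *Ccr1* and *Cxcr4* differed most between diets and in opposite directions, though neither passed the test. The second place of *Cxcr4* was not stable: without HFD replicate 3 it was -0.15, where *Ccrl2* was 0.29. Their proximal promoters are shown for context, as the 250 bases before the RefSeq start of *Ccr1* and of *Cxcr4* in GRCm38.p6. The *Ccr1* window is on the minus strand at chr9:123968693-123968942 and the *Cxcr4* window on the minus strand at chr1:128592300-128592549. Capitals mark matches, on either strand, to the core of the hypoxia-inducible factor site (ACGTG or GCGTG) and of the site of PU.1, the myeloid lineage factor (GAGGAA).
Ccr1: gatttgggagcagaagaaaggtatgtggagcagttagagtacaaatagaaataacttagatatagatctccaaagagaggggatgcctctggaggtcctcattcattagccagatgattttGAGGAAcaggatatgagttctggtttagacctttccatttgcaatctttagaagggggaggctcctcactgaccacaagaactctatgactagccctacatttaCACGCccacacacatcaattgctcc
Cxcr4: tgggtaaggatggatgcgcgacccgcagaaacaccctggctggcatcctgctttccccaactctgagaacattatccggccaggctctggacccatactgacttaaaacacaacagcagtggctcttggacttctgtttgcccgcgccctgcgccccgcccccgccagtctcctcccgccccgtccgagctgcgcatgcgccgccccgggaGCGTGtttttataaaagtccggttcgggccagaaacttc

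Each of these windows held 1 hypoxia core, starting 25 bases before the start of *Ccr1* and 39 bases before that of *Cxcr4*, and the *Ccr1* window also held 1 PU.1 core, 129 bases before the start. RefSeq windows were found for 9 of 9 receptors. A hypoxia core was present for 6 of 9 (*Ccr1*, *Ccrl2*, *Cxcr4*, *Nrp1*, *Nrp2* and *Plxnd1*), against 38.6% of 32851 windows of the same length. A PU.1 core was present for 3 of 9 (*Ccr1*, *Nrp1* and *Plxnd1*), against 23.3%. ACGTG and its reverse complement overlap where a window holds both as one palindrome. A match is a description of letters and not a bound site.

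*Plxnb2* (chr15:89155549-89180788, minus strand, 36 merged exons) encodes plexin-B2, a receptor for class 4 semaphorins. Its signal was 15874, 14948 and 14892 in ND and 15279, 14498 and 13925 in HFD replicates 1 to 3, with HFD replicate 1 inside the ND range. The log2 fold change was -0.065 (SE 0.066, 95% interval -0.21 to 0.083, limma adjusted p = 0.775). It was -0.033 without HFD replicate 3, -0.10 without HFD replicate 1 and -0.12 after quantile normalization. *Plxnd1* (chr6:115954811-115995005, minus strand, 36 merged exons) encodes plexin-D1, the receptor for semaphorin 3E. Its signal was 11511, 11060.0 and 11184 in ND and 12131, 12225 and 10843 in HFD replicates 1 to 3. HFD replicates 1 and 2 were the highest libraries and HFD replicate 3 was the lowest. Its log2 fold change was 0.058 (SE 0.068, 95% interval -0.093 to 0.21, limma adjusted p = 0.809), with a turn to -0.0051 after quantile normalization. Leaving out HFD replicate 2 gave 0.028 and leaving out HFD replicate 3 gave 0.11.

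*Nrp1* (chr8:128358604-128503363, plus strand, 18 merged exons) encodes neuropilin-1, the co-receptor of VEGF-A and semaphorin 3A. It was the steadiest of the receptors in ND, at 10009, 10160.5 and 10280 in ND and 9971, 10532 and 10697 in HFD replicates 1 to 3. The ND libraries varied by a coefficient of 1.34%, near the counting error of 0.921% to 1.07%, and lay within the HFD range. The log2 fold change was 0.035 (SE 0.060, 95% interval -0.099 to 0.17, limma adjusted p = 0.879), and it was -0.033 after quantile normalization. Leaving out HFD replicate 3 gave 0.014 and leaving out HFD replicate 1 gave 0.065.

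*Nrp2* (chr1:62703285-62818695, plus strand, 18 merged exons) encodes neuropilin-2, which binds semaphorin 3F and VEGF-C. Its signal was 14156, 14213 and 15037 in ND and 15672, 16021 and 15995 in HFD replicates 1 to 3. Every HFD library lay above every ND library, with ND replicate 3 nearest to HFD. ND averaged 14469 ± 493 and HFD 15896 ± 195 (SD over 3 libraries per diet), a log2 fold change of 0.14 (SE 0.061, 95% interval -0.0011 to 0.27), or 1.10-fold. It did not pass the test (limma p = 0.0516, adjusted p = 0.478; exact permutation p = 0.1, the smallest possible). The fold change stayed between 0.12 and 0.16 when any 1 library was left out, but after quantile normalization it was 0.082 and the diets overlapped.

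**Figure D2:**
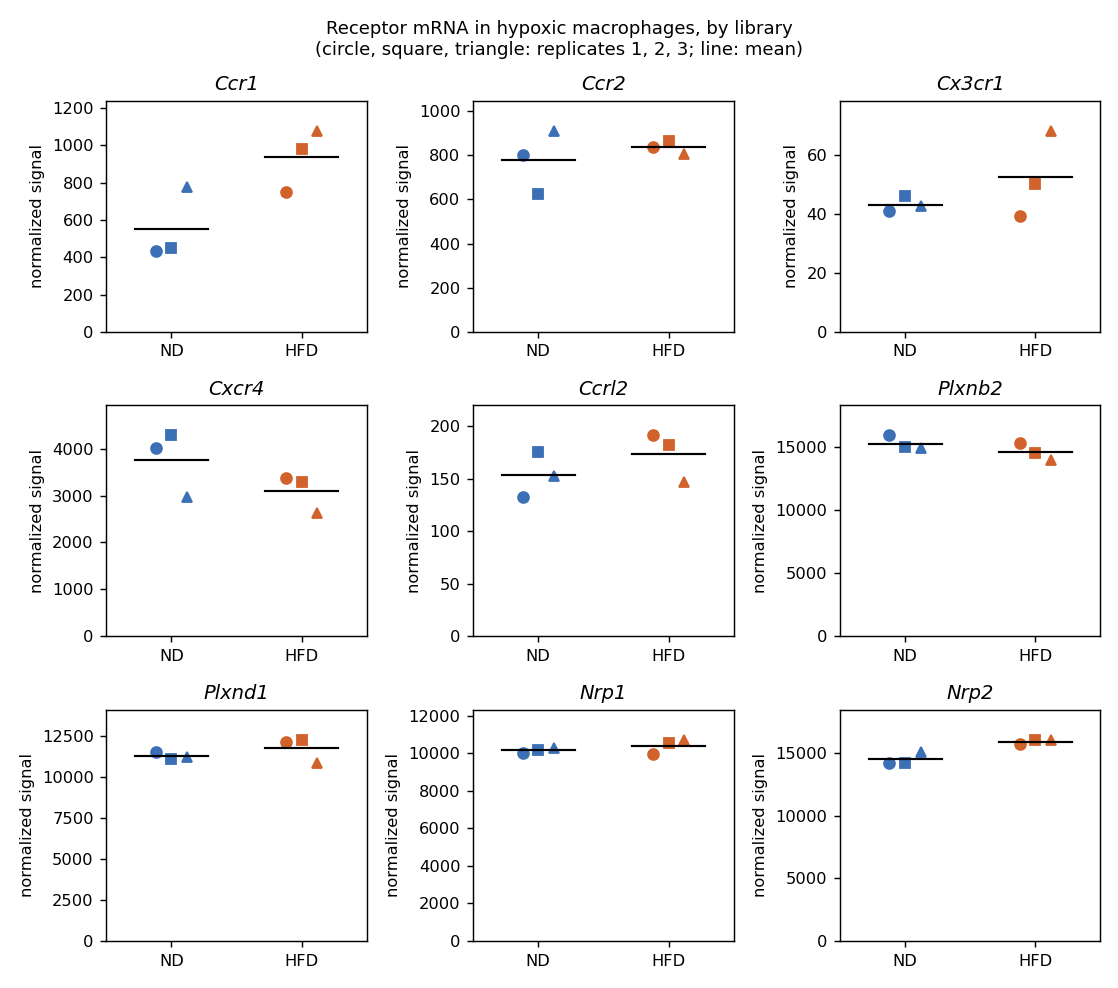
Normalized signal of each receptor by diet, with each axis from 0, 1 point per library (circle, square and triangle for replicates 1, 2 and 3) and a line at the mean of 3. *Nrp2* is the receptor with no overlap between diets, and for *Ccr1* and *Cxcr4* the ND triangle lies among the HFD points.

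Over the receptors as a group, 7 of 9 were higher and 2 of 9 lower in HFD, where 6470 of all 13232 genes were higher and 6762 lower. Their median log2 fold change was 0.12, against -0.0034 over all 13232 genes. Leaving out ND replicate 2 brought the receptors' median to 0.046, and leaving out ND replicate 1 brought it to 0.075. The directions of *Plxnd1* and *Nrp1* within that count turned after quantile normalization, and that of *Ccr2* without ND replicate 2. None of the 9 had an adjusted p under 0.05, as was the case for 0 of 13232 genes (0%, limma). At an unadjusted p under 0.05 there was 1 higher (*Ccr1*) and 0 lower, where 5.40% and 5.18% of all genes were called, 10.6% in either direction. The diets stood apart, without overlap, for 1 of 9 (*Nrp2*, higher), against 7.44% of all genes higher, 7.07% lower and 14.5% in either direction. These shares are near the background. Without ND replicate 3, 1 of 9 had an adjusted p under 0.05 in limma (*Ccr1*, higher), where 1.22% of all genes were called higher, 0.537% lower and 1.76% in either direction. With limma array weights, fitted to the same libraries and so no separate support, it was *Ccr1* alone, where 8.56% of all genes were called.

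**Figure D3:**
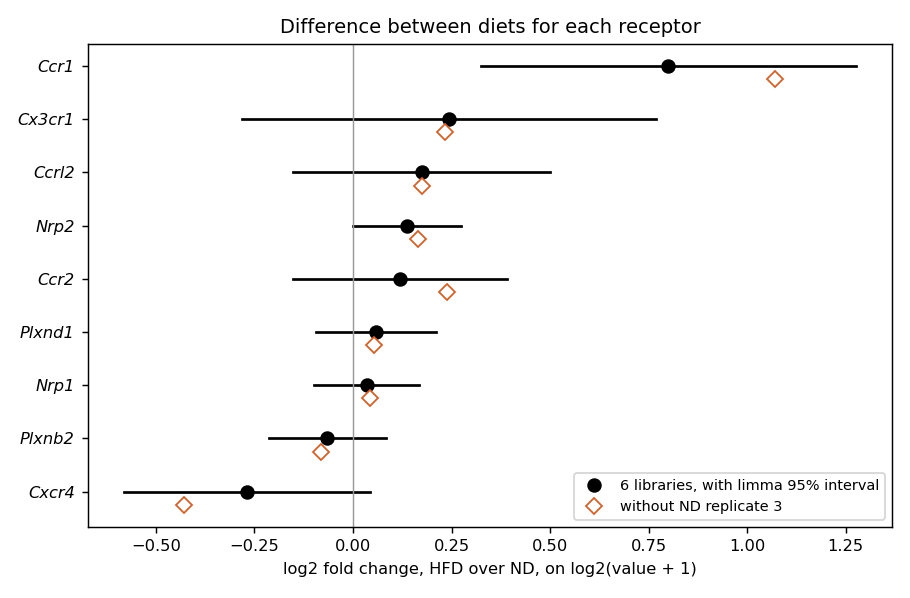
Log2 fold change of HFD over ND for each receptor, as filled points with limma 95% intervals over 6 libraries and as open diamonds without ND replicate 3. The *Ccr1* interval, 0.32 to 1.28, lies above 0, and leaving out ND replicate 3 moves *Ccr1* to 1.07 and *Cxcr4* to -0.43.

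Across the 6 libraries the receptors did not move as a block: of 36 pairs, 19 had a positive and 17 a negative correlation of log2 values. *Ccr1* and *Nrp2* ran together (Pearson r = 0.96, Spearman rho = 0.89), and *Ccr1* ran against *Cxcr4* (r = -0.90, rho = -0.89). Without ND replicates 1 and 2, the libraries farthest from the median of *Ccr1*, r was 0.75 and -0.56. *Plxnb2* ran against *Nrp1* (r = -0.93, rho = -0.94) and *Nrp1* ran with *Cx3cr1* (r = 0.91, rho = 0.94). Without the 2 libraries farthest from the median of *Plxnb2* or of *Cx3cr1*, these were -0.99 and 0.66. For deviations from each diet's own mean the 4 pairs, in this order, had an r of 0.98, -0.91, -0.92 and 0.88. With 6 libraries that share depth and scaling for all genes, these correlations are descriptions and carry no test. The genes most like *Ccr1* among 10793 others with a mean of at least 100 were *Itgax* (r = 0.999), *C5ar1* (r = 0.998) and *Anxa7* (r = 0.998), and 264 genes had an r of at least 0.95. For *Ccr2* they were *Ptpn9* (r = 0.987), *Flad1* (r = 0.987) and *Emc1* (r = 0.987), with 45 genes at 0.95 or more.

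*Itgax*, the integrin CD11c, had a signal of 1138.5, 1172 and 2131 in ND and 2072, 2899 and 3071 in HFD replicates 1 to 3, the same pattern as *Ccr1* with ND replicate 3 among the HFD libraries (log2 fold change 0.90, limma adjusted p = 0.270). It was 1.19 and past the threshold once ND replicate 3 was left out (limma adjusted p = 0.0127, with 0.0063 to 0.879 over all alternatives tried). *Itgax* is also on the dendritic cell list, of which 2 of 9 genes had a row (*Itgax* and *H2-Aa*). Their summed level was 4272 to 5998 in ND and 7043 to 9130 in HFD, and *Flt3*, *Zbtb46*, *Clec9a*, *Siglech*, *Xcr1*, *Cd209a* and *Ccr7* had no row. The monocyte list, with 6 of 10 genes, summed to 1101 to 1367 in ND and 909 to 1186 in HFD, with 3 genes higher and 3 lower in HFD. Named after their values were seen, *Spn* (log2 fold change -0.51) and *Vcan* (-0.45) were lower and *Treml4* (1.17) higher, each without overlap. The others on the list, *Plac8*, *Ly6c1* and *Hp* among them, had no row. The neutrophil list, with 6 of 10 genes, summed to 1712 to 2455 in ND and 2109 to 3430 in HFD, with 6 of 6 genes higher on average in HFD. Within it *Mmp8*, named after its values were seen, did not overlap, at 443 to 463 in ND and 707 to 1032 in HFD, and *Camp*, *Mpo*, *Elane* and *Retnlg* had no row. The endothelial list, with 3 of 6 genes, summed to 2570 to 3799 in ND and 2305 to 2381 in HFD, most of it *Vwf*, and *Cdh5*, *Tek* and *Emcn* had no row. Of the mast cell and basophil list 1 of 8 genes, *Kit*, had a row, at 117 to 226 in ND and 72.4 to 104 in HFD. The stromal list, with 4 of 8 genes, all lower on average in HFD, summed to 201 to 636 in ND and 61.75 to 417 in HFD, and *Dcn*, *Lum*, *Cxcl12* and *Lepr* had no row. *Ighm*, the 1 of 6 B cell genes with a row, was 3061, 2891 and 1889 in ND and 2075, 1876 and 1886 in HFD, so that ND replicate 3 lay at the HFD level, as it did for *Cxcr4*. *Cd4*, the 1 of 8 T and NK cell genes with a row, ranged from 202 to 356 in ND and from 98.1 to 230.04 in HFD. *Cd79a*, *Cd3e* and *Nkg7* were among the genes of these lists with no row. The progenitor list, with 2 of 6 genes, summed to 708.5 to 930.0 in ND and 636 to 788 in HFD, and 0 of 6 erythroid genes had a row. The part of other cell types in the receptor values was not tested, and in bulk RNA more cells of a type cannot be told apart from more RNA per cell.

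Of 19 other chemokine receptors, 3 had a row, and none passed the test. *Ccr3* was 482, 573 and 886 in ND and 919, 1061 and 1072 in HFD (log2 fold change 0.70, limma adjusted p = 0.278, over its alternatives 0.0068 to 0.879), with no overlap. It is also on the eosinophil list, whose other members *Prg2*, *Epx*, *Siglecf* and *Il5ra* had no row. *Cxcr3* had a log2 fold change of -0.19 (limma adjusted p = 0.755), which was -0.11 without HFD replicate 3 and -0.30 without ND replicate 3. Without ND replicate 3, *Ccr3* was 0.95 and past the threshold.

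Of 15 other chemoattractant receptors, 12 had a row, 7 higher and 5 lower in HFD (median log2 fold change 0.040), and 0 passed in limma. At an unadjusted p under 0.05, where 10.6% of all genes were called, there was 1. That was *C5ar2*, an atypical receptor for complement C5a, at 540, 620 and 618 in ND and 829, 826 and 811 in HFD replicates 1 to 3. The diets lay well apart (log2 fold change 0.47, SE 0.077, limma adjusted p = 0.118, over its alternatives 0.00461 to 0.750), and without ND replicate 3 the test was passed (0.51, limma adjusted p = 0.0216). The signalling receptor for C5a, *C5ar1*, was 12253, 12426 and 13776 in ND and 13537, 14239 and 14509 in HFD (0.14, limma adjusted p = 0.536). *Ptger4*, a prostaglandin E2 receptor, had a log2 fold change of 0.19 (limma adjusted p = 0.614), which was 0.11 without HFD replicate 1 and 0.285 without ND replicate 3.

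Of 13 ligands of these chemokine receptors, 8 had a row, 4 higher and 4 lower in HFD (median -0.13), and 0 passed in limma. At an unadjusted p under 0.05, 1 was higher and 3 lower, where 5.40% and 5.18% of all genes were called. *Ccl4*, an inflammatory CC chemokine, was 426, 374.5 and 363 in ND and 233, 185 and 269 in HFD (-0.77, limma adjusted p = 0.145), and *Ccl3*, a ligand of CCR1, was 1052, 971 and 828 in ND and 612, 597 and 737 in HFD (-0.55, limma adjusted p = 0.184). *Ccl6*, a CCR1 ligand, differed the other way, at 4828, 5191 and 6080 in ND and 6311, 7299 and 7433 in HFD (0.39, limma adjusted p = 0.260). Over the 8 ligands, 2 were higher and 2 lower in HFD without overlap, against 14.5% of all genes in either direction. *Ccl3*, *Ccl4* and *Ccl6*, named for their small p, are among them. All 3 passed the test without ND replicate 3, at -0.82 for *Ccl4* (limma adjusted p = 0.0369, over its alternatives 0.00461 to 0.750), -0.65 for *Ccl3* (0.0206, over its alternatives 0.00461 to 0.860) and 0.48 for *Ccl6* (0.0253, over its alternatives 0.00781 to 0.879). *Ccl5*, *Cxcl12* and *Rarres2*, which encodes chemerin, had no row.

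**Figure D4:**
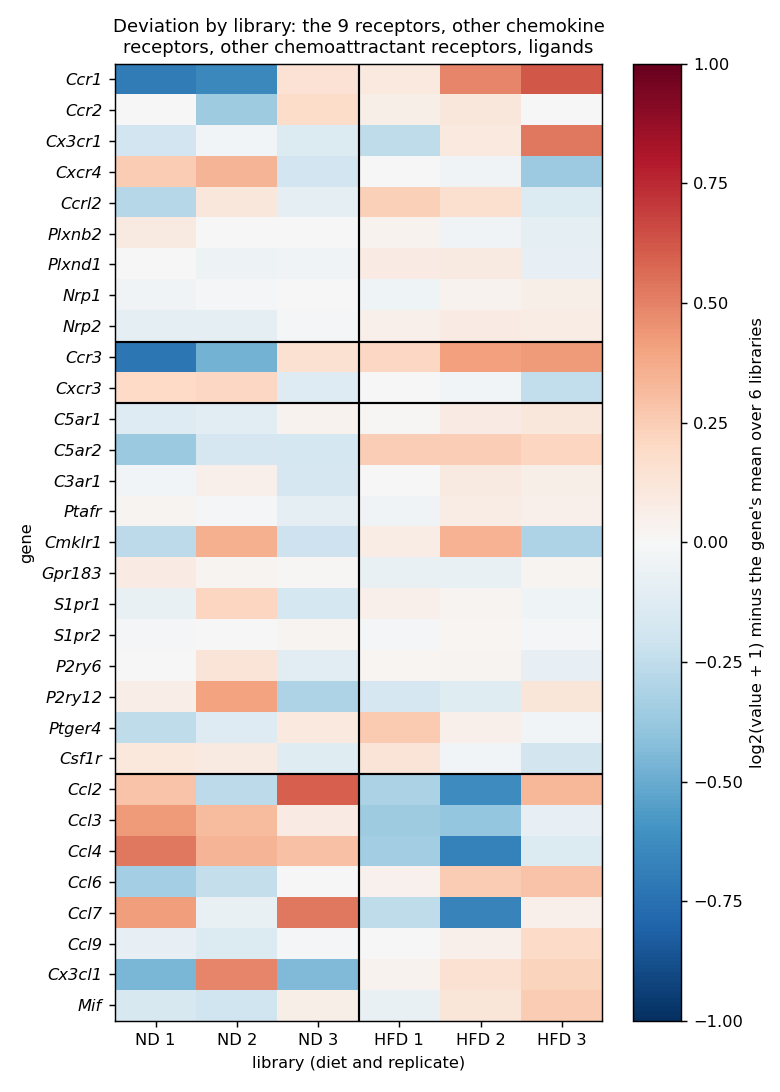
Log2(value + 1) of each gene less its mean over the 6 libraries, in colour, for the 9 receptors and, below the lines, the chemokine receptors *Ccr3* and *Cxcr3*, 12 other chemoattractant receptors and 8 ligands, with libraries in columns. *Ccr1* and *Ccr3* are lowest in ND replicates 1 and 2, and *Nrp2*, *Ccr3*, *C5ar2*, *Ccl3*, *Ccl4*, *Ccl6* and *Ccl9* separate all 3 ND from all 3 HFD libraries.

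Among the other plexins 6 of 7 had a row, 2 higher and 4 lower in HFD (median -0.015), and 0 passed in limma. Before adjustment, 1 was higher and 2 lower at p under 0.05, where 5.40% and 5.18% of all genes were called. *Plxna4* was low, at 23.9, 14.7 and 48.3 in ND and 46.0, 69.5 and 76.3 in HFD (log2 fold change 1.24, limma adjusted p = 0.319), so HFD replicate 1 lay below ND replicate 3. With that ND library left out it was 1.68 and past the threshold (limma adjusted p = 0.0365, over its alternatives 0.0165 to 0.888). *Plxnb3* (-0.54, limma adjusted p = 0.402) was also low, at 54.3 to 74.8 in ND and 36.3 to 48.3 in HFD, without overlap. *Plxnc1*, the semaphorin 7A receptor, was 9241, 9410.4 and 8184 in ND and 8458, 7942 and 7193 in HFD (-0.19, limma adjusted p = 0.455, and -0.12 without HFD replicate 3). Of 20 semaphorin and VEGF ligand genes, 8 had a row, 4 higher and 4 lower (median -0.021), with 0 passing in limma. Before adjustment, 1 was lower at p under 0.05, against 5.18% of all genes. The smallest p-values were those of *Sema6d* (-0.51, limma adjusted p = 0.429, and 0.0350 with array weights, the lowest of 0.0350 to 0.956 over its alternatives), *Vegfb* (-0.25, 0.492) and *Sema4c* (0.26, 0.667). Single libraries moved them: leaving out ND replicate 2 gave 0.099 for *Sema4c*, leaving out ND replicate 3 gave 0.48, and *Vegfb* without ND replicate 1 was -0.14. The class 3 semaphorins on the list, which include ligands of neuropilins, had no row.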

How the data were processed

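The authors deposited 1 table of normalized gene signal for 6 hypoxia libraries, and STAR, Partek and mm10 are named in the submitters' processing notes, with no role given. The counter, annotation, filter and scaling are not given in the sources used here. NC in a column name was read as normal diet, with the number after it as the replicate. That the signal is estimated counts over a size factor was read from the values: among values from 5 to 1000, 57.1% to 58.4% were whole multiples of a single step in each library, within 0.02. Because the rest were not whole, no count test was run.

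The log2(value + 1) of all 13232 genes was compared with limma 3.58.1 (mean-variance trend, two-sided) in R 4.3.3, with Benjamini-Hochberg adjustment across the table and a threshold of 0.05. SE is limma's moderated standard error. Fold changes on this scale understate those of low genes. The procedure was tested on simulated data. Lengths and positions come from GENCODE M21 (GRCm38). All receptors were named, and from each pathway list the 3 genes with the smallest p. Some genes of the lists are not reported here. Receptors, lists and alternatives were chosen with earlier results of these data known. Residual correlations between libraries of equal replicate number were 0.089, -0.11 and 0.027, and no pairing was fitted. These values cannot show whether such libraries share a batch. Reads carried no molecular identifiers, so counting error covers counting only.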

Additional observations from a re-analysis of the deposited data

How the results depend on the processing

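No gene passed in the limma fit of all 6 libraries (1401 at an unadjusted p under 0.05), and none of the 9 receptors. Pseudocounts of 0.1 and 10, both stricter filters, quantile normalization, scaling to the column total and limma without the trend also gave 0 for both. Array weights gave 1133 genes and 1 receptor, *Ccr1*. Adding the replicate block to the fit gave 31 genes and 0 receptors, with *Ccr1* at a limma adjusted p of 0.0504. Whether equal replicate numbers share a batch is not known, and this fit is among the alternatives in the ranges given. Leaving out 1 library gave 0 to 233 genes and 0 to 1 receptors: 233 and 1 without ND replicate 3, 2 and 0 without HFD replicate 1, and 1 and 0 without ND replicate 2. The cause was not tested. Quantile normalization turned *Plxnd1* to -0.0051 and *Nrp1* to -0.033. Without 1 library *Ccr2* ran from -0.031 to 0.24 and *Ptpn9* from -0.011 to 0.074. Of 134 receptor values under the 15 alternatives, 129 kept their sign and were again not called, though some moved in size, 2 were newly called (*Ccr1*) and 3 turned. The receptors without overlap numbered 1 of 9 (14.5% of all genes), against 0 after quantile normalization (14.1%). With 1 library fewer, where separation is easier for every gene, they numbered 4 without ND replicate 3 (35.9% of all genes), 5 when HFD replicate 1 was left out (30.5%) and 3 when HFD replicate 3 was (25.0%). They numbered 1 when ND replicate 1 (19.8%), ND replicate 2 (24.0%) or HFD replicate 2 (18.8%) was left out. Depth limits *Cx3cr1* most, at 36 to 75 reads. Tests for raw counts were left out because the values are normalized.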

Other observations

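Partners and regulators of these receptors had a row for 17 of 20 listed symbols, 9 higher and 8 lower in HFD (median log2 fold change 0.012). Among the listed symbols *Adrbk1* (no row) is an older symbol of *Grk2* (with a row). In limma 0 passed, with 2 higher and 2 lower at an unadjusted p under 0.05, where 5.40% and 5.18% of all genes were called. *Met*, the receptor of hepatocyte growth factor that can pair with plexins of class B, was 28.9, 45.0 and 36.6 in ND and 66.6, 121 and 112 in HFD replicates 1 to 3, without overlap (1.39, limma adjusted p = 0.181, over its alternatives 0.00647 to 0.860). *Cd74*, the invariant chain and a receptor for the cytokine MIF beside CXCR4, was 17050, 15224 and 19718 in ND and 24820, 28351 and 21783 in HFD, also without overlap (0.53, limma adjusted p = 0.217). *Cd74* without ND replicate 3 was 0.63 and past the threshold (limma adjusted p = 0.0288, over its alternatives 0.0063 to 0.860). *Rgs10*, which shortens G protein signals, was 2521, 2660 and 2304 in ND and 2125, 2211 and 1979 in HFD without overlap (-0.24, limma adjusted p = 0.307, over its alternatives 0.041 to 0.879).

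Genes that carry the migration signal inside the cell had a row for 30 of 30, 21 higher and 9 lower in HFD (median 0.049). Over all 13232 genes, 6470 were higher and 6762 lower. No migration gene passed the threshold in limma. At an unadjusted p under 0.05, where 10.6% of all genes were called in either direction, 3 were higher and 0 lower, which is near the background. These were *Arhgap25* (0.41, limma adjusted p = 0.318), a Rac-inactivating protein of blood cells, the kinase gene *Ptk2b* (0.23, 0.331) and *Arhgef12* (0.19, 0.429, and 0.11 without ND replicate 1). With array weights *Ptk2b* and *Arhgef12* passed, and over the alternatives their adjusted p in limma spanned 0.0171 to 0.918 and 0.0413 to 0.956. *Arhgap25* was 4247, 4631 and 5998 in ND and 5726, 6944 and 6890.4 in HFD, so that ND replicate 3 again lay among the HFD libraries. With that library left out it was 0.55 and past the threshold (limma adjusted p = 0.0241, over its alternatives 0.00995 to 0.910).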
